A study of Mus musculus with 10 samples.

Results

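The genes described here are 8 genes known from the projection neurons of the striatum: Ppp1r1b, Rgs9, Pde10a, Syndig1l, Ankrd63, Foxp1, Meis2 and Pde1b. They were a named list, all 8 were found among the 30935 genes of the table through their Entrez identifiers, and all 8 were among the 15488 genes that passed the filter on low counts. They were chosen by their place in striatal neurons and by log2 fold changes between the genotypes already seen in these same libraries. That difference is therefore given for them as a description, and nothing is inferred from it. The data are RNA sequencing counts of P8 mouse cerebral cortex, from postnatal day 8. 5 libraries came from Rbfox1 ΔHAR.505/ΔHAR.505 mice (replicates 1, 3, 5, 6 and 8), in which both copies of the element HAR.505 at the Rbfox1 locus are deleted, called knockout here. The other 5 came from Rbfox1 +/+ wild-type mice (replicates 2, 4, 5, 6 and 7). No driver line, treatment, sex, litter or strain is named in the labels.

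The striatum lies beneath the cortex, and most of its neurons are GABAergic projection neurons. Dopamine reaches them from the midbrain and acts through cyclic AMP and protein kinase A, and several of the genes described here sit in that pathway. Ppp1r1b encodes DARPP-32, which inhibits protein phosphatase 1 when protein kinase A has phosphorylated it. Pde10a and Pde1b encode phosphodiesterases that degrade cyclic nucleotides, the second of them activated by calcium and calmodulin. Rgs9 encodes a regulator that shortens the signal of G proteins. Foxp1, a forkhead transcription factor, and Meis2, a homeobox transcription factor, take part in the development of these neurons. Syndig1l encodes a membrane protein related to Syndig1, and Ankrd63 a protein with ankyrin repeats. From textbook knowledge, Ppp1r1b, Rgs9, Pde10a and Syndig1l were classed as striatum-restricted, although Ppp1r1b is also known from deep cortical layers. Foxp1, Meis2 and Pde1b were classed as shared with cortical neurons, and Ankrd63 was not placed in either class.

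Library totals lay between 16479594 and 22391943 counts. Markers of cortical excitatory neurons were abundant in every library, and their summed level was 4814 to 5370 CPM in knockout libraries against 4622 to 4948 CPM in wild-type libraries (20 genes). CPM is the usual scaling of counts to a common library size. Choroid plexus and ependymal markers, which belong to tissue of the ventricles, summed to 125 to 373 CPM in knockout libraries against 369.8 to 455 CPM in wild-type libraries (20 genes, 19 tested, 2 lower and 0 higher in the test over all genes). Knockout replicates 3, 5 and 6 held 125, 131 and 130.1 CPM of these markers, knockout replicate 8 held 211 CPM and knockout replicate 1 held 373 CPM. Enpp2 alone gave 96.0, 93.9 and 92.5 CPM of the sums in knockout replicates 3, 5 and 6. Its means were 99.7 CPM in knockout and 108 CPM in wild type. Ttr, the chief choroid plexus transcript, had no count in knockout replicate 3, and by counting error alone a true level of up to 0.165 CPM (3 counts in that library) could give this. Ttr held 200, 0.490, 5.07 and 80.6 CPM in knockout replicates 1, 5, 6 and 8, against 213 to 278 CPM in wild-type libraries.

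All 8 genes had a fitted fold change below 1 in knockout cortex, although without knockout replicates 3, 5 and 6 Syndig1l and Foxp1 lay above it (log2 fold changes 0.20 and 0.07). The sizes were uneven: Ppp1r1b stood at 0.398 and Ankrd63 at 0.441 of the wild-type level, Rgs9 at 0.677, Pde10a at 0.785, and Meis2, Pde1b, Foxp1 and Syndig1l between 0.879 and 0.973. 1 of the 8, Ankrd63, passed the edgeR quasi-likelihood test over all genes (adjusted p under 0.05), where 0.381% of all tested genes passed, 0.194% lower and 0.187% higher in knockout. In 2 of the 8, Rgs9 and Ankrd63, every knockout library lay below every wild-type library, which held for 0.897% of all tested genes. Since the genes were picked with this contrast known, no more is read from these counts. The median log2 fold change was -0.27 over the 8 genes, against -0.0021 over all 15488 tested genes.

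**Figure D1:**
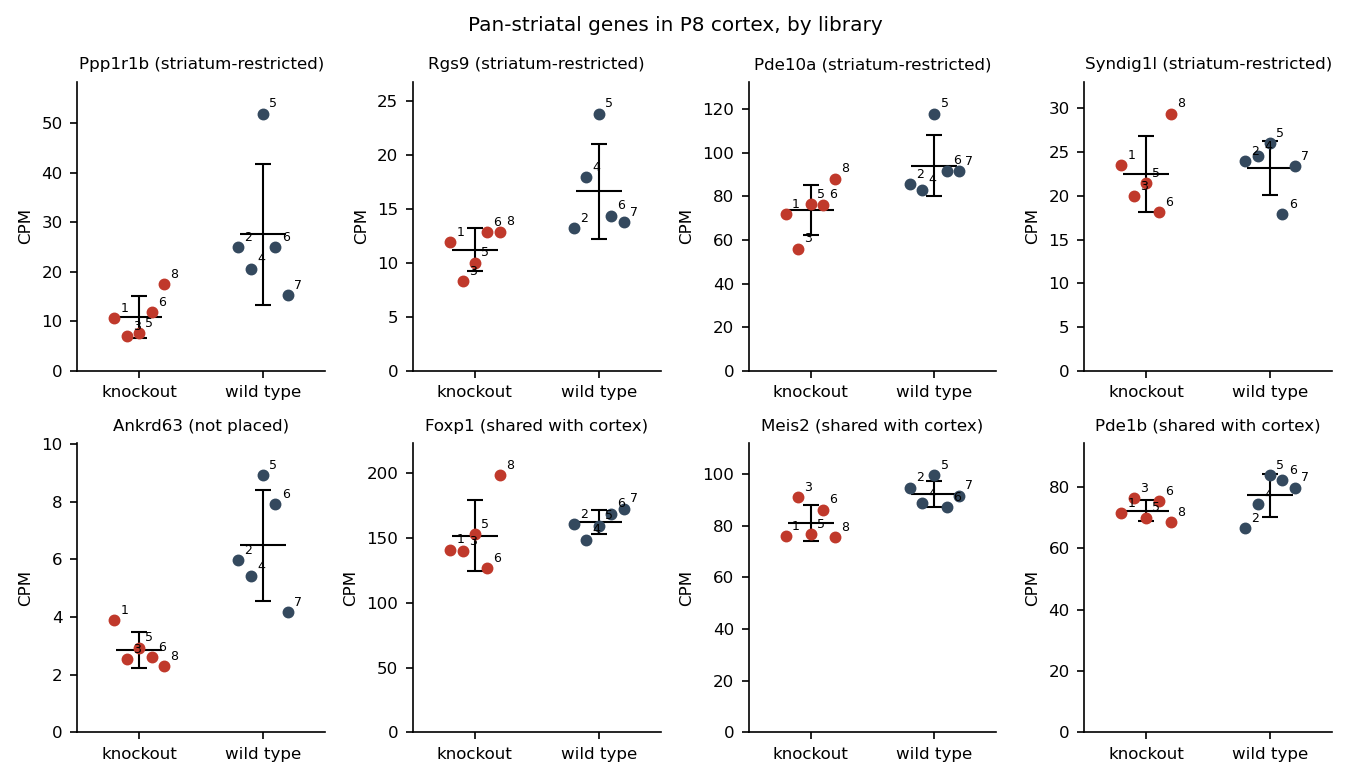
Level of each of the 8 genes in CPM (vertical axes, from 0) in the 5 knockout and the 5 wild-type libraries, points labelled with the replicate number; horizontal lines are means and bars are SD. The knockout points of Rgs9 (8.34 to 12.9 CPM) and Ankrd63 (2.29 to 3.89 CPM) all lie below the wild-type points, and the other 6 genes overlap.

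Of the striatum-restricted genes, Ppp1r1b had the largest fitted difference. Ppp1r1b, the DARPP-32 gene, held 10.7, 6.96, 7.65, 11.9 and 17.5 CPM in knockout replicates 1, 3, 5, 6 and 8, against 25.0, 20.7, 51.9, 25.0 and 15.3 CPM in wild-type replicates 2, 4, 5, 6 and 7. 4 of the 5 knockout libraries lay below the lowest wild-type library, and knockout replicate 8 lay above it. Wild-type replicate 5 stood far above the other wild-type libraries. The mean was 10.9 ± 4.21 CPM in knockout and 27.6 ± 14.2 CPM in wild type (SD, n = 5 each). On the log2 scale the fold change was -1.33 (SE 0.39, the standard error), and the 95% interval of the fold ran from 0.213 to 0.745. Ppp1r1b did not pass the test over all genes. Without wild-type replicate 5 its log2 fold change was -0.97. The annotation of GENCODE M21 places an exon of 1700003D09Rik on the opposite strand over 460 bases of Ppp1r1b exons. That gene held at most 0.221 CPM in any library.

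Rgs9, which encodes a terminator of G protein signals, held 12.0, 8.34, 10.04, 12.9 and 12.9 CPM in knockout replicates 1, 3, 5, 6 and 8, against 13.2, 17.9, 23.9, 14.4 and 13.8 CPM in wild-type replicates 2, 4, 5, 6 and 7. The groups did not overlap, but the highest knockout and the lowest wild-type libraries lay close together. Its log2 fold change was -0.56 (SE 0.16), and without wild-type replicate 5 it was -0.40. Pde10a, the phosphodiesterase gene most typical of these neurons, was the most counted of the restricted genes, with 1015 to 1576 counts in knockout and 1547 to 2043 counts in wild-type libraries. It held 71.8, 56.0, 76.6, 76.3 and 88.2 CPM in knockout replicates 1, 3, 5, 6 and 8, against 85.7, 83.1, 117.9, 91.9 and 91.7 CPM in wild-type replicates 2, 4, 5, 6 and 7. Knockout replicate 8 alone reached the range of the wild-type libraries. The log2 fold change of Pde10a was -0.35 (SE 0.13). Neither gene passed the test over all genes.

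Syndig1l had the smallest fitted difference of the 8. It held 23.5, 19.9, 21.4, 18.1 and 29.4 CPM in knockout replicates 1, 3, 5, 6 and 8, against 23.9, 24.5, 26.0, 17.9 and 23.4 CPM in wild-type replicates 2, 4, 5, 6 and 7. The groups overlapped fully: the lowest library of all was wild-type replicate 6 and the highest was knockout replicate 8. The means were 22.5 ± 4.34 CPM in knockout and 23.1 ± 3.09 CPM in wild type (SD, n = 5 each). The log2 fold change was -0.04 (SE 0.12), and the 95% interval of the fold ran from 0.823 to 1.15. Whether Syndig1l differs from the other restricted genes was not tested. The annotation places Gm48573 on the opposite strand over 177 bases of Syndig1l exons, and no strand setting of the counting is given.

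Ankrd63 had the lowest counts of the 8 genes, 41 to 65 in knockout and 82 to 176 in wild-type libraries. It held 3.89, 2.54, 2.94, 2.62 and 2.29 CPM in knockout replicates 1, 3, 5, 6 and 8, against 5.98, 5.42, 8.92, 7.91 and 4.17 CPM in wild-type replicates 2, 4, 5, 6 and 7. Every knockout library lay below every wild-type library. The means were 2.86 ± 0.623 CPM in knockout and 6.48 ± 1.92 CPM in wild type (SD, n = 5 each), a fold of 0.441 with a 95% interval from 0.328 to 0.592. Within the knockout libraries its order was unlike that of the restricted genes: replicate 8, the highest for Ppp1r1b, Rgs9, Pde10a and Syndig1l, was the lowest for Ankrd63. Its log2 fold change of -1.18 (SE 0.21) changed little without wild-type replicate 5 (-1.04) or without knockout replicates 3, 5 and 6 (-1.07), although with the 7 libraries left in that fit it no longer passed the test.

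Foxp1, Meis2 and Pde1b, the genes shared with cortical neurons, had smaller differences. Foxp1 held 141, 139.8, 153, 127 and 198 CPM in knockout replicates 1, 3, 5, 6 and 8, against 161, 149, 159, 169 and 173 CPM in wild-type replicates 2, 4, 5, 6 and 7. Knockout replicate 8 was the highest library of all, and knockout replicates 1, 3 and 6 lay below every wild-type library. The log2 fold change of -0.10 (SE 0.11) became -0.21 without knockout replicate 8, a fit in which Foxp1 passed the test over all genes. It was -0.04 without knockout replicate 6 and 0.07 without knockout replicates 3, 5 and 6, so the value moved with the libraries left in. The annotation places Gm20696 over 300 bases and Gm49348 over 135 bases of Foxp1 exons, both on the same strand.

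Meis2 held 76.0, 91.0, 76.8, 86.2 and 75.5 CPM in knockout replicates 1, 3, 5, 6 and 8, against 94.8, 88.6, 99.6, 87.1 and 91.6 CPM in wild-type replicates 2, 4, 5, 6 and 7. 4 of the 5 knockout libraries lay below all wild-type libraries, and knockout replicate 3 lay among them. Its log2 fold change was -0.19 (SE 0.060). Pde1b held 71.4, 76.2, 70.0, 75.3 and 68.5 CPM in knockout replicates 1, 3, 5, 6 and 8, against 66.4, 74.4, 83.8, 82.1 and 79.7 CPM in wild-type replicates 2, 4, 5, 6 and 7. The lowest Pde1b value of all 10 libraries was that of wild-type replicate 2. The log2 fold change of Pde1b was -0.10 (SE 0.062), and neither gene passed the test over all genes.

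**Figure D2:**
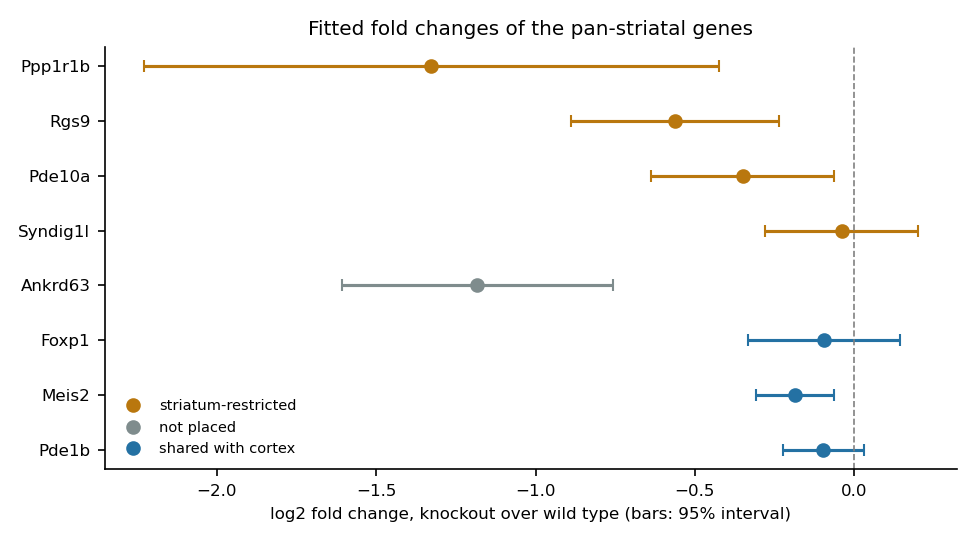
Fitted log2 fold change of each gene, knockout over wild type (horizontal axis, bars are 95% intervals), coloured by class. Ppp1r1b (-1.33) and Ankrd63 (-1.18) lie farthest to the left, and the intervals of Syndig1l, Foxp1 and Pde1b include 0.

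Set side by side, the 4 striatum-restricted genes had a median log2 fold change of -0.46, with a range from -1.33 to -0.04, and the 3 shared genes a median of -0.10, with a range from -0.19 to -0.10. The restricted median was lower by a log2 difference of -0.36. In each library, the median log2 CPM of the shared genes was also subtracted from that of the restricted genes. This difference in level varied between libraries of a genotype with an SD of 0.356. That SD is a spread of single libraries in another measure, not an error of the -0.36. Whether the classes differ was not tested. The restricted class was itself mixed, since Syndig1l lay nearer to 0 than any shared gene. The class names come from textbook knowledge and not from levels in these cortex libraries. Wild-type means were 27.6, 16.6, 94.1 and 23.1 CPM for Ppp1r1b, Rgs9, Pde10a and Syndig1l. Those of Foxp1, Meis2 and Pde1b were 162, 92.3 and 77.3 CPM, so Pde10a was as abundant as Meis2. With Ankrd63 counted as restricted the difference was -0.47, with Ankrd63 counted as shared it was -0.31, and with Ppp1r1b counted as shared it was -0.21. In whole-tissue RNA, fewer cells of a type and less RNA per cell cannot be told apart.

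The genes also varied unequally among the wild-type libraries. Wild-type replicate 5 was the highest wild-type library for 7 of the 8 genes, all but Foxp1. Relative to the mean of the other 4 wild-type libraries it held 2.42 times as much Ppp1r1b, 1.61 times as much Rgs9, 1.52 times as much Ankrd63 and 1.34 times as much Pde10a. For Syndig1l the ratio was 1.16, for Pde1b 1.11, for Meis2 1.10 and for Foxp1 0.979. This library is part of the wild-type mean, so its ratios and the genotype fold changes are not independent. Among the knockout libraries, replicate 8 was highest for 5 of the 8 genes and lowest for the other 3, Ankrd63, Meis2 and Pde1b, and replicate 3 was lowest for Ppp1r1b, Rgs9 and Pde10a.

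**Figure D3:**
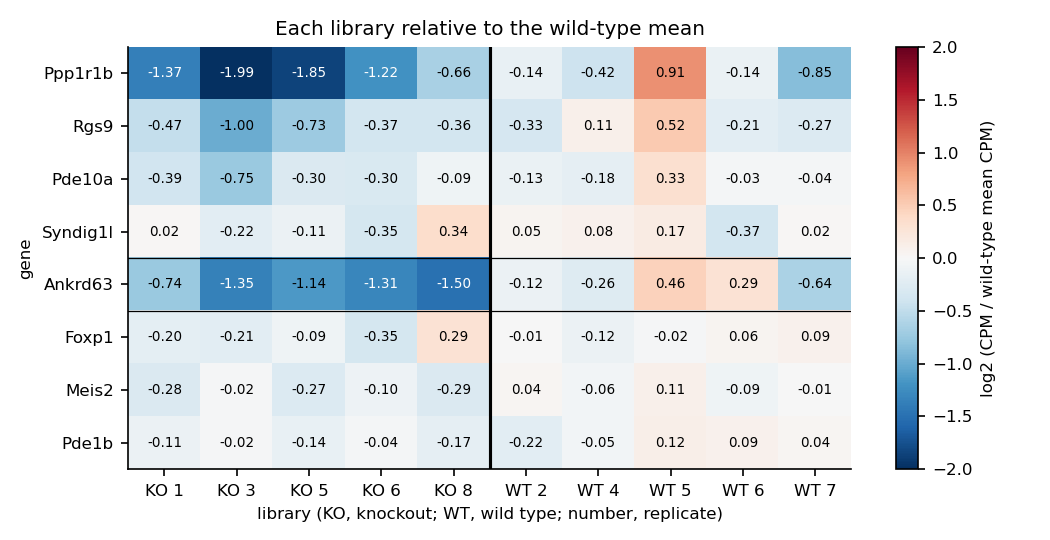
Log2 ratio of the CPM of each gene (rows) in each library (columns, knockout on the left, wild type on the right) to the wild-type mean of that gene. Ppp1r1b runs from -1.99 in knockout replicate 3 to 0.91 in wild-type replicate 5, while the row of Meis2 stays between -0.29 and 0.11.

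How closely the genes moved together within a genotype was measured as the distance between profiles over the 10 libraries. The genotype means were subtracted, each profile was scaled to unit SD, and the root mean square difference was taken, so that 0 is an identical profile and unrelated profiles lie near 1.41. Each restricted gene was set against the mean log2 CPM of the other 3. Ppp1r1b, Rgs9 and Pde10a lay at distances of 0.591, 0.592 and 0.606, and Syndig1l at 1.03. Against the mean of all 4 restricted genes, Ankrd63 lay at 1.12, Foxp1 at 1.14, Pde1b at 1.39 and Meis2 at 1.48. Set against the same mean profiles, 0.198% of 13621 other genes lay nearer than Ppp1r1b and 59.8% nearer than Meis2.

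The 8 genes outside the list whose profile was nearest to the mean of the restricted genes were Igfbp4 (0.324), Pdyn (0.432), Plaat1 (0.435), Mbp (0.443), Stac2 (0.467), Syt6 (0.481), Ecd (0.492) and Stard7 (0.497). That mean was taken before scaling, so Ppp1r1b, with the widest spread within genotypes (log2 SD 0.591), weighed most in it. The restricted genes themselves lay at 0.313 (Ppp1r1b), 0.447 (Rgs9), 0.503 (Pde10a) and 0.872 (Syndig1l) from it. Pdyn encodes the precursor of dynorphin, a peptide of striatal projection neurons, and was the only one of the 8 that is on the list of other striatal genes. It held 25.4 CPM in knockout and 20.5 CPM in wild type, a log2 fold change of 0.31 (SE 0.093) that did not pass the test. Its fitted genotype difference was opposite in sign to those of the 4 restricted genes. Mbp, a myelin gene, stood at 134 CPM in knockout and 129 CPM in wild type. A ranking over 10 libraries of 1 tissue describes these samples only.

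The promoters of Ankrd63, Rgs9 and Meis2 are shown because Ankrd63 was the gene that passed the test, Rgs9 a restricted gene whose groups did not overlap, and Meis2 a shared gene, each with a single window. RefSeq windows of GRCm38.p6 were at hand for 6 of the 8 genes, 11 windows in all, and the 250 bases before the start are printed 5′ to 3′ on the strand of the gene. Capitals mark matches on either strand to the GC box GGGCGG, to the Meis core TGACAG, to the forkhead core GTAAACA, to the cyclic AMP response element TGACGTCA and to the TATA box TATAAA. The windows lie at chr2:118703964-118704213 for Ankrd63, chr11:109298182-109298431 for Rgs9 and chr2:116064620-116064869 for Meis2, all on the minus strand.
Ankrd63: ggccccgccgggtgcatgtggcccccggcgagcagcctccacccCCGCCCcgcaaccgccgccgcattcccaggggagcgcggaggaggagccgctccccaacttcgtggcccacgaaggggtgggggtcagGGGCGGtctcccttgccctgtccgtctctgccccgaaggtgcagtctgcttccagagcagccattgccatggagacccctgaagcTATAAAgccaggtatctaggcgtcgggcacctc
Rgs9: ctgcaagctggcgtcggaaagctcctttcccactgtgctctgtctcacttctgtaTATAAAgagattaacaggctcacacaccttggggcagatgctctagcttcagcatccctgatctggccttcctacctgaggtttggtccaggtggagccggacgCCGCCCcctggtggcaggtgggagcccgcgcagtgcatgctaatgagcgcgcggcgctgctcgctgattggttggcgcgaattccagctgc
Meis2: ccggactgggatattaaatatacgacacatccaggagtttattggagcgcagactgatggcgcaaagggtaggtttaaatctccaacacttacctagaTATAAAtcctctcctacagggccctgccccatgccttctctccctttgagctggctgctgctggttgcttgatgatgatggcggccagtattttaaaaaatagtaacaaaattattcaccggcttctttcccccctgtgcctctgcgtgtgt

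The window of Ankrd63 was 70.0% G and C, against a median of 52.4% over all 32851 windows, and held a TATA box that begins 33 bases before the start and 2 GC boxes. That of Rgs9 was 59.6% G and C, with a GC box 91 bases and a TATA box 195 bases before the start. That of Meis2 was 47.6% G and C, with a TATA box 152 bases before the start. Of all windows, 12.4% held the TATA box letters, 32.7% the GC box, 15.9% the Meis core, 3.17% the forkhead core and 1.55% the cyclic AMP response element. Of the 11 windows of the genes described here, 3 held a TATA box, 6 a GC box, 3 a Meis core, 1 a forkhead core and 0 the cyclic AMP response element. The Meis core occurred in windows of Foxp1 and Pde1b. A match is a run of letters, not a measured binding site.

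Most other genes of the pathway in which DARPP-32, Rgs9 and the phosphodiesterases act lay near a fold of 1. Of 40 such genes of dopamine, cyclic AMP and protein kinase A signalling, 0 passed the edgeR test, where 0.381% of all tested genes passed. At that share nothing is read from a count of 0. An unadjusted p under 0.05 was held by 7, against 8.71% of all tested genes, while DESeq2 called 2 (Adora2a and Drd2, both lower) and limma-voom 0. 25 of the 40 had a log2 fold change below 0, against 50.9% of all tested genes, and the median was -0.02. The receptors had the smallest p of the list. Adora2a, the adenosine receptor gene of the striatopallidal neurons, stood at 6.64 ± 2.68 CPM in knockout and 15.7 ± 6.62 CPM in wild type (log2 fold change -1.24, SE 0.34). The dopamine receptor gene Drd2 stood at 3.79 ± 0.593 CPM in knockout and 6.49 ± 2.32 CPM in wild type (-0.77, SE 0.20), and Drd1 at 11.5 ± 1.81 CPM in knockout and 15.2 ± 1.85 CPM in wild type (-0.40, SE 0.12; SD, n = 5 each). Without knockout replicate 8 the test called 3 genes of this list, Adora2a, Drd1 and Gnal, all lower.

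The partners through which these genes work were measured too, named here outside the rule as known partners. Gnb5 and Rgs7bp encode the subunit and the anchor that hold Rgs9 at the membrane, and neither passed the test. Gnb5 stood at 68.5 CPM in knockout and 69.9 CPM in wild type (log2 fold change -0.03, SE 0.060), and Rgs7bp at 225 CPM in knockout and 201 CPM in wild type (0.16, SE 0.057). For Ppp1ca, which encodes a catalytic subunit of the phosphatase that DARPP-32 inhibits, the log2 fold change was 0.03 (SE 0.047). Ppp1r1a, which encodes the related inhibitor of that phosphatase, had one of -0.03 (SE 0.066). Adcy5, the main adenylyl cyclase gene of the striatum, stood at 229 ± 8.95 CPM in knockout and 251 ± 6.86 CPM in wild type (SD, n = 5 each). Its knockout libraries all lay below its wild-type libraries, as in 0.897% of all tested genes and in 1 of the 40 genes of the pathway list. The log2 fold change of Adcy5 was -0.13 (SE 0.045) and did not pass the test.

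Of the other phosphodiesterase genes, 16 of 22 were tested. 0 passed the edgeR test, where 0.381% of all tested genes passed, so the 0 is not read as a result. 4 had an unadjusted p under 0.05 (8.71% of all tested genes had), and DESeq2 and limma-voom called 0 each. 8 of the tested genes lay below 0 and 8 above, where 50.9% of all tested genes lay below, with a median log2 fold change of -0.0052. Pde1c, a relative of Pde1b, stood at 7.57 CPM in knockout and 9.84 CPM in wild type (log2 fold change -0.38, SE 0.13), and its knockout libraries all lay below its wild-type libraries, as in 0.897% of all tested genes. The log2 fold change was -0.36 (SE 0.12) for Pde5a and 0.15 (SE 0.049) for Pde2a.

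The relatives and partners of Foxp1 and Meis2 were likewise below the threshold. Of 19 tested genes 0 passed the edgeR test, where 0.381% of all tested genes passed, so nothing is read from the 0. An unadjusted p under 0.05 was held by 5, against 8.71% of all tested genes, while DESeq2 and limma-voom called 0 each. 14 of the 19 lay below 0, against 50.9% of all tested genes, and the median log2 fold change was -0.04. Meis1, the closest relative of Meis2, stood at 3.30 ± 0.684 CPM in knockout and 5.06 ± 1.56 CPM in wild type (SD, n = 5 each), with -0.61 (SE 0.21) on the log2 scale. For Pbx3, which encodes a partner of Meis proteins, it was -0.38 (SE 0.13). For Nkx2-1, a transcription factor gene of the medial ganglionic eminence, it was -1.01 (SE 0.40), at 0.785 CPM in knockout and 1.60 CPM in wild type.

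Of 29 tested genes on a list of other genes of striatal projection neurons, 3 fell in the test over all genes and 0 rose, where 0.194% of all tested genes were lower and 0.187% higher. DESeq2 called 5 of them and limma-voom 2, so the count depended on the tool. An unadjusted p under 0.05 was held by 18, against 8.71% of all tested genes. 26 of the 29 lay below 0, against 50.9% of all tested genes, and the median log2 fold change was -0.27. The 3 above 0, named here outside the rule, were Gpr6 (0.34, SE 0.13), Pdyn (0.31, SE 0.093) and Arpp21 (0.04, SE 0.047). Gpr6 stood at 13.7 CPM in knockout and 10.8 CPM in wild type, and none of these 3 passed the test. The list was written with earlier results of these libraries known and shares 9 genes with the pathway list. The 3 that fell, Six3, Penk and Sp9, had log2 fold changes of -2.70 (SE 0.36), -1.03 (SE 0.16) and -0.54 (SE 0.12). Six3 and Sp9 encode transcription factors of developing striatal neurons, and Penk the precursor of enkephalin. The summed level of the list was 1625 to 1793 CPM in knockout libraries against 1750 to 2011 CPM in wild-type libraries. Isl1, a transcription factor gene of this list, had no count in knockout replicates 3 and 6. By counting error alone, a count of 0 allows up to 0.165 and 0.169 CPM there (3 counts each). Isl1 held 0.539, 0.122 and 0.559 CPM in knockout replicates 1, 5 and 8, against 0.356 to 1.48 CPM in wild-type libraries. It was low in both genotypes and did not pass the test.

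The summed level of the 4 restricted genes was 91.3 to 148 CPM in knockout libraries against 144 to 219.7 CPM in wild-type libraries, and that of the 3 shared genes 288 to 342 CPM in knockout libraries against 312 to 344 CPM in wild-type libraries. The choroid plexus and ependymal sum moved with the genotype as well. Its order over the knockout libraries differed in part: knockout replicate 1, with a choroid sum of 373 CPM within the wild-type range, held 118 CPM of the restricted genes, and knockout replicate 6, with 130.1 CPM, held 119 CPM. In knockout replicate 1, Enpp2 gave 120.6 CPM of the choroid sum, its highest level in any library. Ttr gave 200 CPM there, below the 213 to 278 CPM of the wild-type libraries. Knockout replicate 8 had the highest restricted sum of the knockout libraries, 148 CPM, at a choroid sum of 211 CPM. The part of the tissue carried into each dissection in these differences was not tested.

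**Figure D4:**
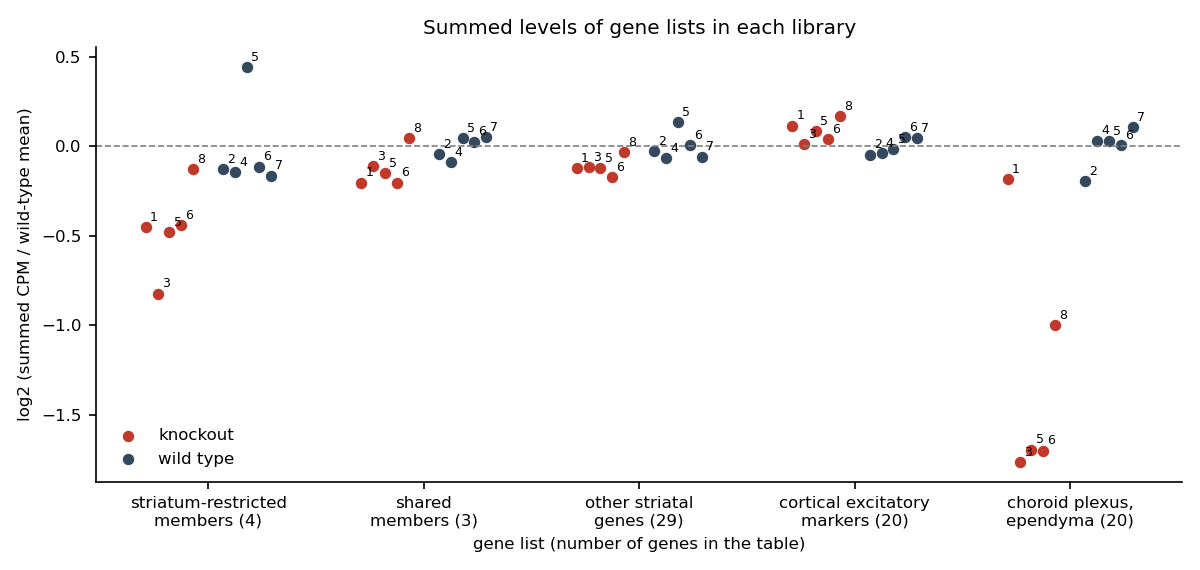
Log2 ratio of the summed CPM of 5 gene lists (horizontal axis) in each library to the wild-type mean of that sum, knockout on the left and wild type on the right within each list, points labelled with the replicate number. The restricted genes reach -0.82 in knockout replicate 3 and 0.44 in wild-type replicate 5, and the choroid and ependymal sum reaches -1.76.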

How the data were processed

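Per the labels' protocols, total RNA came from a Qiagen column kit. The authors deposited whole-number counts per gene with Entrez identifiers. Per the submitters' processing notes, HISAT2, featureCounts and the build mm39 were used. Their versions, the annotation, the strand setting and the handling of multiply aligned reads are not stated. Symbols came from a RefSeq table of GRCm38.p6, which matched 30648 of 30935 identifiers. Pairs of libraries of a genotype differed by more than sampling noise (chi-square per degree of freedom 4.10 to 13.9), so each counted as 1 replicate. The design text calls the 5 samples of each genotype independent.

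The genotypes were compared in edgeR 4.0.16 (R 4.3.3) after filterByExpr and TMM scaling, by a robust quasi-likelihood F test without covariates. P-values were two-sided and adjusted with the Benjamini-Hochberg method over 15488 tested genes, and genes under 0.05 were called. Each fold change is knockout over wild type on the log2 scale, with standard errors from the F statistic and 95% intervals. CPM values use the deposited counts and TMM-scaled totals, and log2 CPM a prior count of 2. The fit was tested on simulated data.

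The genes, their classes and all lists were chosen with earlier results of these data known. Genes were named by rule: the 8 genes, the 3 with the smallest p and any past the threshold of the pathway and striatal lists, and the 8 nearest profiles with a mean of at least 1 CPM and no predicted gene. Names outside it are marked, or are markers of a library that stands apart. The alternatives were RLE and upper quartile scaling, DESeq2 1.42.0, limma-voom (limma 3.58.1), no filter, a stricter filter of 50 counts in 5 libraries, each library left out, knockout replicates 3, 5 and 6 left out, a replicate block and other class assignments. Leaving out wild-type replicate 5 as well was added after the data were seen. 1 gene of the striatal list is not in the table used here. Plots were made in matplotlib 3.10.9.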

Additional observations from a re-analysis of the deposited data

Results flagged for a closer look

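Some values were set apart from the rest of their genotype, by a gap to the nearest library that took up over 0.71 of the whole range. 40 groups of 5 were examined and 5 such values were found, where about 1 in 20 of independent groups would hold one by chance. The groups here were not independent, since they share libraries and the genes were chosen with this contrast known. The 5 values are therefore not read as more than that rate. 4 of them concerned wild-type replicate 5, the highest of the wild-type libraries. It held 51.9 CPM of Ppp1r1b against 15.3 to 25.0 CPM in the other wild-type libraries, and 117.9 CPM of Pde10a against 83.1 to 91.9 CPM. It held 27.3 CPM of Adora2a against 10.7 to 15.0 CPM, and 7.76 CPM of Meis1 against 3.97 to 5.04 CPM. Knockout replicate 5 was lowest for Nkx2-1, at 0.184 CPM against 0.836 to 1.05 CPM in the other knockout libraries.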

How the results depend on the processing

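Under the 6 other scalings, filters and tools, the log2 fold changes of the 8 genes moved by less than the spread between replicates. Ankrd63 passed under each of them and with any 1 of the 10 libraries left out, but not without knockout replicates 3, 5 and 6. Rgs9 also passed with no filter and with DESeq2, and Foxp1 also passed without knockout replicate 8 (-0.21). Without wild-type replicate 5 and knockout replicates 3, 5 and 6 together, an alternative chosen after the data were seen, Ppp1r1b had a log2 fold change of -0.61, Rgs9 -0.25, Pde10a -0.14, Ankrd63 -0.93, Meis2 -0.26, Pde1b -0.11, Foxp1 0.06 and Syndig1l 0.24, and 0 of the 8 genes passed. Without knockout replicates 3, 5 and 6 alone, Foxp1 (0.07) and Syndig1l (0.20) lay above 0 as well. With 1 library left out, Syndig1l lay below 0 in 7 of the 10 fits, with a range from -0.15 to 0.03. The difference between the medians of restricted and shared genes stayed below 0 in all 22 alternatives run (-0.47 to -0.08, and -0.41 to -0.23 with 1 library left out). The alternatives reuse the same libraries, and the genes were chosen with their fold changes known. The constant sign is therefore not further evidence that the classes differ.

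The count of 59 genes called over all tested genes was 171 with no filter, 124 with DESeq2, 15 to 182 with 1 library left out, 12 without knockout replicates 3, 5 and 6, 27 with the replicate block, and 11 without wild-type replicate 5 as well. The cyclic AMP list had 1 call with no filter, 2 with DESeq2, 0 to 3 with 1 library left out, and 1, Adora2a, with the replicate block. The phosphodiesterase and the Foxp1 and Meis2 partner lists had 0 to 1 calls each with 1 library left out, the 1 being Pde2a (higher) and Foxp2 (lower) without knockout replicate 8. Only the replicate numbers 5 and 6 occur in both genotypes, and their deviations from the group means correlated at -0.030 and -0.057 over genes, so the block rests on a number the samples share and not on a known pairing. In that fit the genotype term comes from those 4 libraries, wild-type replicate 5 among them, with 1 residual degree of freedom. Ppp1r1b passed there (log2 fold change -1.90), which is not read as a further call. With genotype means kept in the profiles, 0 of the 8 nearest genes were the same. Ankrd63, with 41 to 176 counts a library, is the gene whose fold is most limited by depth.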

Other observations

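Genes of regions that border the cortex and the striatum were looked at in short lists. Over all tested genes 0.381% passed the edgeR test, so 0 calls in such a list are not read as a result. An unadjusted p under 0.05, counted for each list here, was held by 8.71% of all tested genes. Of 9 tested genes of olfactory bulb and dorsal ganglionic eminence interneurons, 0 passed the edgeR test over all genes, 2 had an unadjusted p under 0.05, and the summed level was 217 to 267 CPM in knockout libraries against 246 to 264 CPM in wild-type libraries. Of 10 genes of septum, pallidum and basal forebrain 5 were tested, of which 0 passed and 2 had an unadjusted p under 0.05, with sums of 81.2 to 93.6 CPM in knockout libraries against 78.7 to 91.3 CPM in wild-type libraries. Lhx8, a basal forebrain gene of that list named after its values were seen, was too low to be tested: it had no count in knockout replicates 1, 3, 5 and 6 and 0.0559 CPM in knockout replicate 8, against 0.180 to 0.926 CPM in wild-type libraries. By counting error alone, a count of 0 allows up to 0.165 to 0.182 CPM in those 4 knockout libraries (3 counts each). Of 8 tested thalamic genes, 0 passed and 2 had an unadjusted p under 0.05, with sums of 563 to 604 CPM in knockout libraries against 551 to 581 CPM in wild-type libraries. Of 19 tested cortical excitatory neuron genes, 0 passed, 5 had an unadjusted p under 0.05, and 12 lay above 0. DESeq2 and limma-voom called 0 genes of these 4 lists.

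With the genotype means kept, the profiles nearest to the mean of the 4 restricted genes over the 10 libraries were those of Adora2a (distance 0.361), Ccdc187 (0.389), P2ry1 (0.402), Bcl11b (0.403), Drd2 (0.404), Tinagl1 (0.420), Crabp1 (0.421) and Nexn (0.426). Adora2a, Drd2 and Bcl11b are on the list of other striatal genes. This ranking uses the genotype difference with which the genes were chosen, so it describes that difference again.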
